A study of Mus musculus with 9 samples.

Results

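The imprinted mouse loci Peg3, Kcnq1ot1, Plagl1, Peg10, Peg13, Zrsr1 and Nap1l5 were described by the stretch of partly methylated CpGs at or around each gene. The 7 genes were chosen by the methylation level of their gene ends in these same libraries, which lay near the middle of the scale, so that level is a description and not a finding. Steadiness between libraries may also have entered the choice, so the spread is given as a description too. The gene table holds 34328 genes that code for proteins or long noncoding RNAs, the 7 included. CpG methylation had been measured by whole-genome bisulfite sequencing of nucleus accumbens DNA, a ventral striatal region of the reward circuitry, in 9 male C57BL/6J mice aged 8 weeks. Each mouse gave 1 library. Of these, 5 are labelled Control (numbers 2, 3, 4, 5 and 8) and 4 Susceptible (numbers 2, 3, 6 and 7). The label on every library, Controls included, describes 10 days of defeat by aggressive CD1 males, and neither how the Controls were handled nor how susceptibility was scored is given in the labels. The samples are tissue punches, so every level is an average over all cell types and over both parental chromosomes.

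In an imprinted gene 1 parental copy is silent. The choice is made in the germ line, where a cluster of CpGs, the differentially methylated region, is methylated on 1 parental chromosome, and the mark is then kept in body cells, largely through the zinc finger protein ZFP57 and its cofactor TRIM28. At all 7 loci the methylated copy is the maternal one and the gene is transcribed from the paternal copy. A tissue in which every cell keeps both states reads in the middle of the scale, although single molecules are fully methylated or unmethylated. The reads themselves were not used here, so intermediate levels could not be assigned to alleles.

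The promoter sequences show which CpGs lie behind the levels at the transcription start. RefSeq promoters of GRCm38.p6, from 250 bases before to 50 bases after the start, were given for 5 of the 7 members (not Peg10 and Peg13). Plagl1, Nap1l5 and Peg3 are printed, 5′ to 3′ on the gene's strand, because Plagl1 showed the lowest exact p between the groups, Nap1l5 the shortest region and Peg3 a start region shared by a pair of genes. Capitals mark every CpG.
Plagl1, chr10:13090582-13090881, plus strand: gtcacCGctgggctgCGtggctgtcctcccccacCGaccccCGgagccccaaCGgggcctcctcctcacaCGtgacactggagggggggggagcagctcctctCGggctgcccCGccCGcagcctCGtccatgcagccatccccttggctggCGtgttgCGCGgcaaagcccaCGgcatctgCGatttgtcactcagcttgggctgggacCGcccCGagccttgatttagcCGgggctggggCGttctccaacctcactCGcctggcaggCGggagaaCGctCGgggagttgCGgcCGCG
Nap1l5, chr6:58907077-58907376, minus strand: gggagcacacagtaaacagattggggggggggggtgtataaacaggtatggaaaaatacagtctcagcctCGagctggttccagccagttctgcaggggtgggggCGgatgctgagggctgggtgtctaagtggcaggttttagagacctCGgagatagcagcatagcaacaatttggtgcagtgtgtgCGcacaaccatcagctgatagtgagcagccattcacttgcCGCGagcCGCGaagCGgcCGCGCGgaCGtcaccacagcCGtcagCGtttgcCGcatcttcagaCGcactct
Peg3, chr7:6730370-6730669, minus strand: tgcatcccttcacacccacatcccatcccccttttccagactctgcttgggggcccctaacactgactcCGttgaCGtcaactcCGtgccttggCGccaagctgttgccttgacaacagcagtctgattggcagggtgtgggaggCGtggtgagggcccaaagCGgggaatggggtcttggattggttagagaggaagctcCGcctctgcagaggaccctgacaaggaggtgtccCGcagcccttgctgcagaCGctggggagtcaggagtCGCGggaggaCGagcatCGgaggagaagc
The Plagl1 sequence holds 26 CpGs, Nap1l5 17 and Peg3 13, and each of them was listed in at least 1 library. In Plagl1, 22 CpGs were listed in all 9 libraries, with means of 48.0 to 70.01% and a median of 52.1%, and 21 of them lay between 30 and 70%. In Peg3, 8 CpGs were listed in all 9, with means of 46.3 to 60.2%. Nap1l5 had no promoter CpG listed in all 9 libraries. The letters TGCCGC, the core of the sequence bound by ZFP57, were searched on both strands. They occur once in the Plagl1 promoter, on the reverse strand, and at 2 places in the Nap1l5 promoter, but not in the 300-base windows of Peg3, Kcnq1ot1 or Zrsr1. Of all 32619 promoters, 11.7% hold them. The CpG inside the Plagl1 match read 42.5 ± 9.32% (SD, 8 libraries), and those inside the Nap1l5 matches 43.7 ± 20.8% (SD, 8 libraries) and 58.4 ± 22.5% (SD, 7 libraries). GCCATNTT, a motif of the factor YY1, was in none of the 5 member promoters and in 6.08% of all promoters.

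Control 5 and Control 8 stood apart from the other 7 libraries. Listed calls ranged from 313475624 to 570984634 per library. Where both strands of a CpG of intermediate level were listed, their disagreement was measured as the squared difference over its binomial variance. The mean of this ratio was 18.4 in Control 5 and 19.7 in Control 8, against 2.38 to 6.11 in the other 7 libraries. Inside the 7 regions these 2 libraries had more bins at the ends of the scale. Of 83 measured 200-bp bins, 20 in Control 5 and 12 in Control 8 were under 10% or over 90%, against 0 to 2 in each of the other 7 libraries. Control 5 had 35 of its 83 bins between 30 and 70% and Control 8 had 36, while the others had 62 to 77. The SD over bins was 28.9 points in Control 5, 26.5 points in Control 8 and 10.3 to 16.5 points in the rest. The mean over bins was alike in all: 57.3% in Control 5, 53.9% in Control 8 and 52.8 to 57.9% in the others. Region levels, group differences and the model's counts of bins under 0.05 over all members are therefore also given without these 2 libraries. So are widths and strand differences where stated. Flanks, edges, promoters, gene ends and the other counts of bins are given over all 9.

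**Figure D1:**
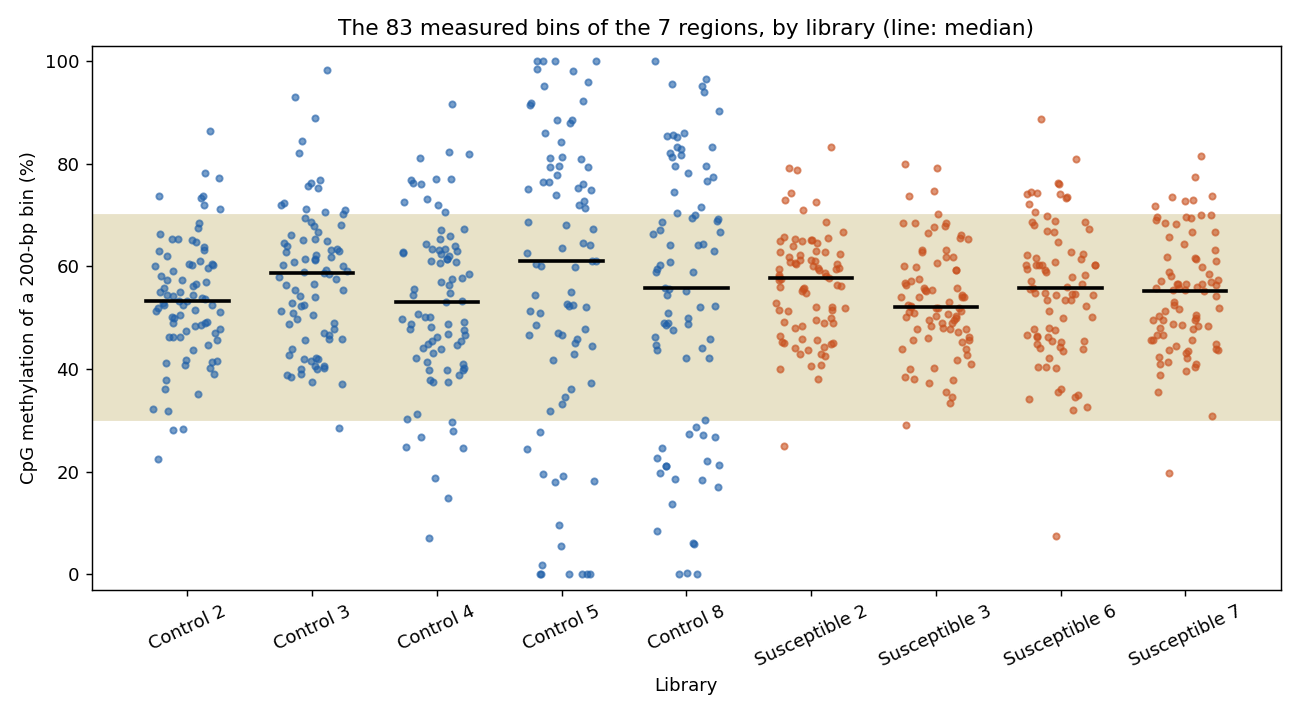
Methylation of each measured 200-bp bin of the 7 regions (vertical axis, percent) in each library (horizontal axis), Control in blue and Susceptible in orange. Each point is 1 of 83 bins, the line is the library's median and the shading spans 30 to 70%. Control 5 and Control 8 spread from 0 to 100%, while the other libraries crowd around the middle.

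A bin was called half-methylated when it had at least 20 calls in every library and a mean of the 9 levels from 30 to 70%. A run was at least 5 such bins, broken by at most 1 measured bin outside the band or 3 unmeasured bins in a row. The region of a member was the run with most half-methylated bins from 5 kb before to 5 kb past the gene. Of 1983705 measured bins, 11.1% lay in the band, and they formed 2752 runs with a median of 5 bins. A run lay within 5 kb of 2545 of the 34328 genes (7.41%), of 19 of 22 other imprinted genes (86.4%) and of 6 of the 7 members. Nap1l5 had only 3 half-methylated bins in its longest stretch, which was used in place of a run after the data had been seen. The regions were 600 to 7200 bp wide and held 23.3 to 81.7 listed CpGs per kb, against 6.15 to 16.6 per kb over the genes with 5 kb on each side.

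The 2 noncoding RNAs had regions of contrasting size. Kcnq1ot1 is the long antisense transcript that silences neighbouring genes of its cluster on the paternal chromosome. Its region, chr7:143294801-143296600, was 1800 bp wide with 7 half-methylated bins and sat over the gene end at 143296547, passing it by 53 bp. The next measured bins read 91.9% on the left, 2800 bp away, and 90.1% on the right, 600 bp away. The right edge was thus placed to within 600 bp and the left edge to within 2800 bp, the bins between being unmeasured. Kcnq1, the potassium channel gene that spans the whole of this region, read 19.2 ± 3.34% (SD, n = 9) at its own CpG-richer end.

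Peg13 is a brain-expressed noncoding RNA within Trappc9. Its region, chr15:72804001-72811200, had 25 half-methylated bins, the second most of all runs in the genome, and covered the whole gene (72805602-72810324) plus 1601 bp before it and 876 bp past it. Of its 114 CpGs listed in all libraries, 105 read 30 to 70%, with a lowest mean of 37.1% and a highest of 77.2%. The level was not flat: the first 400 bp read 67.4 ± 10.5% and the last 400 bp 50.7 ± 15.4% (SD, n = 9). Outside, the next 1 kb read 83.7% on the left and 97.1% on the right. The CpG-richer end of Trappc9, 250038 bp from the region, read 2.94 ± 0.938% (SD, n = 9).

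Peg3 and Plagl1 encode zinc finger proteins, Peg3 being known for effects on growth and maternal behaviour and Plagl1 for growth control. The Peg3 region, chr7:6727001-6731400, was 4400 bp wide with 15 half-methylated bins. Peg3 ends at 6730462 and its divergent neighbour Usp29 begins at 6730559, so the region held both starts, with 3462 bp inside Peg3 and 938 bp past it. On the left the next 1 kb read 87.6 ± 12.5%, but on the right it stayed at 50.3 ± 13.9% over 11 listed CpGs and at 62.5 ± 4.28% from 1 to 2 kb (SD, n = 9). The next measured bin on the right lay 1200 bp past the region and read 47.2%, so the region ended there at bins with too few calls, and intermediate levels were also read further into Usp29. Zim1, another gene of the cluster, lay apart: the window at its CpG-richer end read 26.6 ± 4.26% and the 300-base RefSeq promoter inside that window 1.26 ± 0.846% (SD, n = 9).

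Plagl1 had one of the narrower regions. It spanned chr10:13090201-13091400, 1200 bp with 6 half-methylated bins, 631 bp before the gene start and 569 bp within the gene. All 6 of its bins were measured, and 70 of 72 CpGs listed in all libraries read 30 to 70%. The bin just inside the left edge read 67.7 ± 16.3% and the adjoining bin outside read 88.5 ± 11.3%. The next 1 kb read 92.2 ± 3.05% on the left and 76.3 ± 6.59% on the right (SD, n = 9), so the level changed more gradually on the right. The region was 1600 bp wide and reached 13091800 without Control 5 and Control 8.

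Peg10, Zrsr1 and Nap1l5 are genes that arose by retrotransposition or from a retrotransposon. Peg10, which descends from a retrotransposon and is needed in the placenta, shares its start with Sgce, a sarcoglycan gene. Its region, chr6:4746001-4749200, was 3200 bp wide with 14 half-methylated bins and covered both starts, Sgce ending at 4747204 and Peg10 beginning at 4747306. The nearest measured bins outside read 87.8% and 83.3%, but lay 3400 and 2200 bp away, so neither edge was resolved. The next 1 kb on the right read 55.9 ± 11.2% over 14 CpGs (SD, 8 libraries), so intermediate levels were also read past that edge.

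Zrsr1, a splicing factor gene inside Commd1, had a region of 2400 bp at chr11:22971601-22974000, with all 12 bins measured and half-methylated. The next 1 kb on the left read 96.3 ± 3.42% over 3 CpGs, while on the right it read 58.8 ± 20.7% over 11 CpGs (SD, n = 9). Further to the left, from 1 to 2 kb, 7 CpGs read 45.6 ± 10.2% (SD, n = 9), so intermediate levels were also read beyond the left edge. The next measured bin on the right lay 1600 bp away and read 56.8 ± 18.4% (SD, n = 9). The region thus ended there at unmeasured bins, and the right edge was not resolved. A RefSeq promoter of Commd1 outside the region read 2.24 ± 1.09%, and a second one that lies inside it read 50.9 ± 13.2% (SD, n = 9). The Commd1 window at the gene-table end held only 14 CpGs and read 78.2%.

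Nap1l5, a nucleosome assembly protein-like gene inside Herc3, had the shortest and CpG-densest region, chr6:58906601-58907200, 600 bp with 49 listed CpGs. The level there was 63.0 ± 7.62% over 9 libraries, and 60.5 ± 4.48% over 7 without Control 5 and Control 8 (SD). The next 1 kb on the right read 66.8% and the following kb 96.6%. On the left the values were intermediate and scattered, at 55.5 ± 23.9% in the next 1 kb. The Herc3 gene end, 75146 bp away, read 1.75 ± 0.721% and its RefSeq promoter, at 58833450 with 4 CpGs, 90.1 ± 7.01% (SD, n = 9). When Control 5 and Control 8 were left out, Nap1l5 had a run of 5 half-methylated bins, 1000 bp wide.

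**Figure D2:**
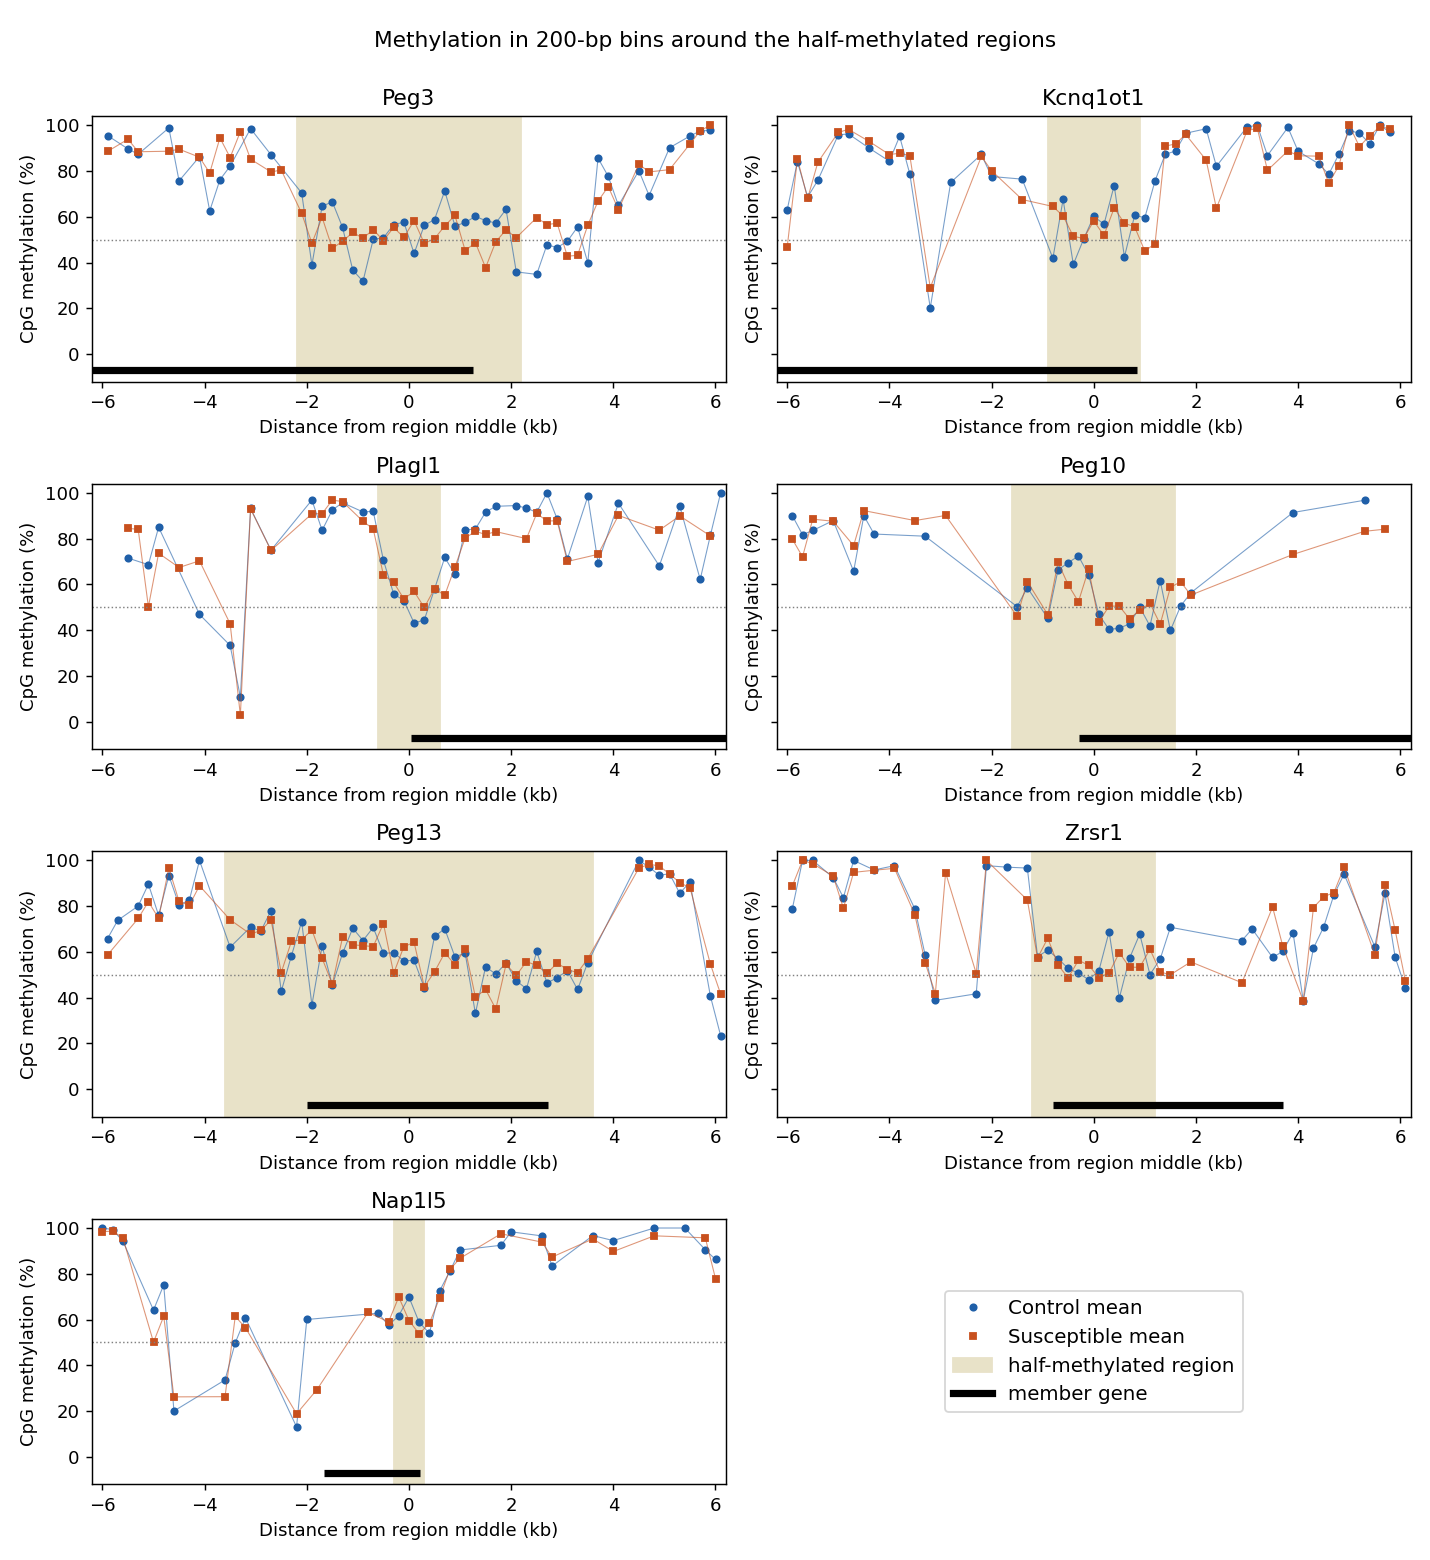
Mean methylation of 200-bp bins (vertical axis, percent) by distance from the middle of each region (horizontal axis, kb), Control in blue and Susceptible in orange, for bins with at least 10 calls in 3 or more libraries of the group. Shading marks the region and the black bar the gene. The region fills 1200 bp at Plagl1 and 7200 bp at Peg13. The right flank of Peg3 stays intermediate to 3.5 kb and then rises, to 95.3% in Control and 91.8% in Susceptible mice at 5.5 kb.

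**Figure D3:**
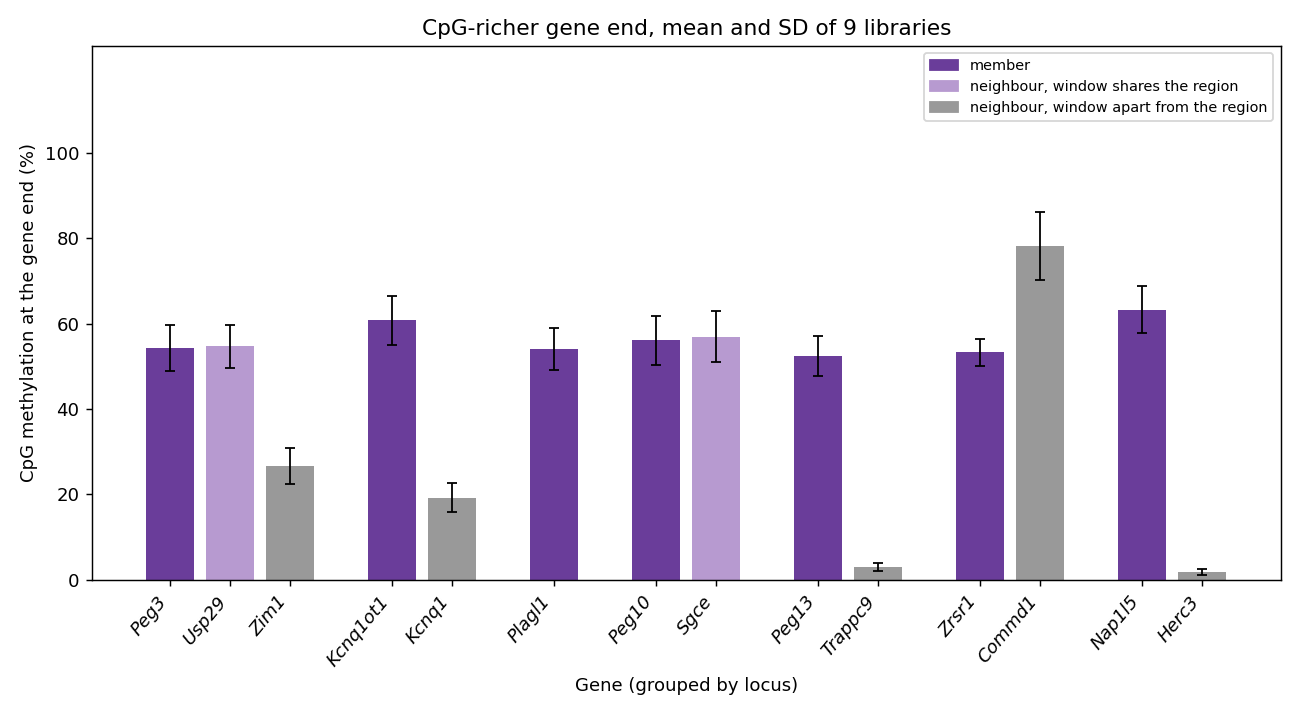
Methylation within 1000 bp of the CpG-richer end of each member and of the genes that share or span its locus (vertical axis, percent; bars are means and whiskers SDs of 9 libraries). Windows of Usp29 and Sgce share the member's region, while Trappc9 and Herc3, whose own ends lie apart, read 2.94 and 1.75%.

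Widths depended on the library. In each library alone the stretch with the most bins in the band was taken, without the minimum of 5 bins. The median width over 9 libraries was 5800 bp for Peg3, 4200 bp for Peg13, 3200 bp for Peg10 and 2800 bp for Zrsr1. It was 2000 bp for Kcnq1ot1, 1600 bp for Plagl1 and 1000 bp for Nap1l5. The stretch lay outside the region in Control 5 at Kcnq1ot1 and Nap1l5, and in Control 8 at Plagl1 and Zrsr1. Peg3 ranged from 600 to 7600 bp and Peg13 from 1000 to 6600 bp. Without Control 5 and Control 8 these ranges were 2800 to 7600 bp and 3200 to 6600 bp. Plagl1 varied least, from 1000 to 1800 bp, and from 1200 to 1800 bp without those 2 libraries.

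Levels of the 7 regions were close to each other. In order of the mean over 9 libraries they were Nap1l5 at 63.0 ± 7.62%, Kcnq1ot1 at 57.1 ± 4.06%, Peg13 at 54.7 ± 2.75%, Zrsr1 at 53.9 ± 3.12%, Peg3 at 53.9 ± 4.19%, Peg10 at 53.8 ± 5.69% and Plagl1 at 52.0 ± 5.32% (SD, n = 9). No neighbours in this order differed by more than the larger of their SDs. The widest gap was 5.86 points, between Nap1l5 and Kcnq1ot1. The order below these 2 depended on Control 5 and Control 8: over the other 7 libraries Nap1l5 read 60.5 ± 4.48%, Kcnq1ot1 56.9 ± 4.07%, Peg10 55.9 ± 3.48%, Zrsr1 54.2 ± 3.005%, Peg13 53.9 ± 2.39%, Plagl1 53.2 ± 4.99% and Peg3 52.7 ± 4.03% (SD). Over the member bins the median SD between libraries was 14.8 points, and 9.90 points without Control 5 and Control 8. Over the 220616 other bins of the genome with a mean of 30 to 70% it was 15.1 and 11.6 points.

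The strands did not always agree. Over the genome only 21.0 to 42.9% of CpGs per library were listed on both strands, so the strand levels of a region may rest on different CpGs. At Peg13 the forward strand was higher in 8 of 9 libraries, by 6.81 ± 7.27 points (SD, n = 9), and in 6 of 7 without Control 5 and Control 8, by 4.12 ± 5.35 points (SD). At Zrsr1 it was higher in 1 of 9, with a mean difference of -8.74 ± 11.1 points (SD, n = 9), and in 0 of 7 without those 2 libraries, at -10.8 ± 3.13 points (SD). At Nap1l5 it was higher in 3 of 9, with a mean difference of -8.03 ± 13.0 points (SD, n = 9), and -6.90 ± 7.96 points without those 2 libraries (SD). The other 4 regions had the forward strand higher in 3 to 5 libraries.

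Whether stress susceptibility went with another level at these loci was asked by comparing 4 Susceptible with 5 Control libraries. The 7 regions were each compared by a two-sided exact permutation test of the library labels. The smallest possible one-sided p is 0.00794, and the two-sided p cannot go that low. In no region did the groups separate without overlap. Of all 2753 regions tested (the 2752 runs and the Nap1l5 stretch), 2.14% separated in that way.

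The Plagl1 region read higher in Susceptible mice. The Control libraries 2, 3, 4, 5 and 8 read 46.3, 49.9, 51.8, 52.2 and 43.8%, and the Susceptible libraries 2, 3, 6 and 7 read 61.0, 51.7, 58.3 and 53.1%. Susceptible 3 lay below the 2 highest Controls, and the other 3 Susceptible libraries lay above every Control. Control averaged 48.8 ± 3.64% (SD, n = 5) and Susceptible 56.0 ± 4.37% (SD, n = 4). The means differed by 7.23 points, with an exact permutation p of 0.0476, and 1 of the 7 regions, Plagl1, was under 0.05. In the quasi-binomial model fitted over all 2753 regions, Plagl1 had a p of 0.00737 and a Benjamini-Hochberg adjusted p of 0.689, so it did not pass. Unadjusted, 7.08% of all regions had a p under 0.05 in this model, 5.52% with the higher level in Susceptible mice, and 1 of the 7 members did. The share of all regions ran from 2.22 to 9.59% with 1 library left out, and was 2.98% without Control 5 and Control 8. With limma on logit methylation Plagl1 had an unadjusted p of 0.0743, and 0 of the 7 members were under 0.05, against 194 of the 2753 regions. The difference was 10.1 points on the forward strand (exact p = 0.0317) and 3.44 points on the reverse strand (exact p = 0.270). Without Control 5 and Control 8 it was 6.69 points with an exact p of 0.114. The libraries left there are too few for this two-sided test to fall under 0.05, so it could not pass. With each of the 9 libraries left out in turn, the exact p ran from 0.0357 to 0.107 and stayed under 0.05 only without Susceptible 3. With 1 library left out, this test can fall under 0.05 only when the groups do not overlap, so these p-values say little about steadiness.

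The 200-bp bin of smallest p at any member also lay at Plagl1. It was chr10:13090801-13091000, which holds the gene's first base in the table, 13090832. Control libraries 2, 3, 4, 5 and 8 read 43.6, 42.0, 48.7, 52.4 and 28.7%, and Susceptible libraries 2, 3, 6 and 7 read 65.1, 45.6, 58.3 and 58.5%. The groups overlapped again through Susceptible 3, and without Control 5 and Control 8 the means differed by 12.1 points. Its p was 0.00210 and its adjusted p 0.937 over 1413772 bins.

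Peg3, which like Plagl1 encodes a zinc finger protein, had the lower level in Susceptible mice, without passing the test. Control libraries 2, 3, 4, 5 and 8 read 54.0, 53.5, 55.5, 58.9 and 56.8%, and Susceptible libraries 2, 3, 6 and 7 read 48.4, 45.8, 55.9 and 56.0%. Susceptible 2 and 3 were below every Control, and 6 and 7 were among them. The difference was -4.23 points (exact permutation p = 0.190, adjusted p = 0.704 in the model over all regions) and -2.81 points without Control 5 and Control 8.

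At the noncoding RNAs the group means lay within 1 point. For Kcnq1ot1 the Control libraries 2, 3, 4, 5 and 8 read 59.99, 52.0, 58.0, 53.9 and 61.8%, while the Susceptible ones 2, 3, 6 and 7 read 58.0, 57.4, 50.9 and 62.1%. The means differed by -0.04 points (exact permutation p = 0.968). For Peg13 the same Controls read 51.9, 55.7, 50.5, 59.2 and 56.1%, and the same Susceptible mice 56.8, 54.6, 52.1 and 55.7%, with means 0.13 points apart (exact permutation p = 0.937). The highest and the lowest Kcnq1ot1 level both came from Susceptible mice, and all 4 Susceptible Peg13 levels lay inside the range of the Controls. Without Control 5 and Control 8 the differences were 0.44 points at Kcnq1ot1 and 2.09 points at Peg13.

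The retrogene group did not pass either. Peg10 ranged from 41.6 to 59.4% in Control and from 50.7 to 60.6% in Susceptible libraries (difference 1.96 points, exact permutation p = 0.683). Its lowest value was Control 8, and without Control 5 and Control 8 the difference was -2.30 points. Zrsr1 ranged from 49.8 to 59.7% and from 51.5 to 56.1% (difference -0.10 points, exact permutation p = 0.968), and -0.67 points without those 2 libraries. Nap1l5 ranged from 54.7 to 80.3% and from 55.8 to 63.3% (difference -5.84 points, exact permutation p = 0.286). Its highest value was Control 5, and without Control 5 and Control 8 the difference was -1.81 points.

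**Figure D4:**
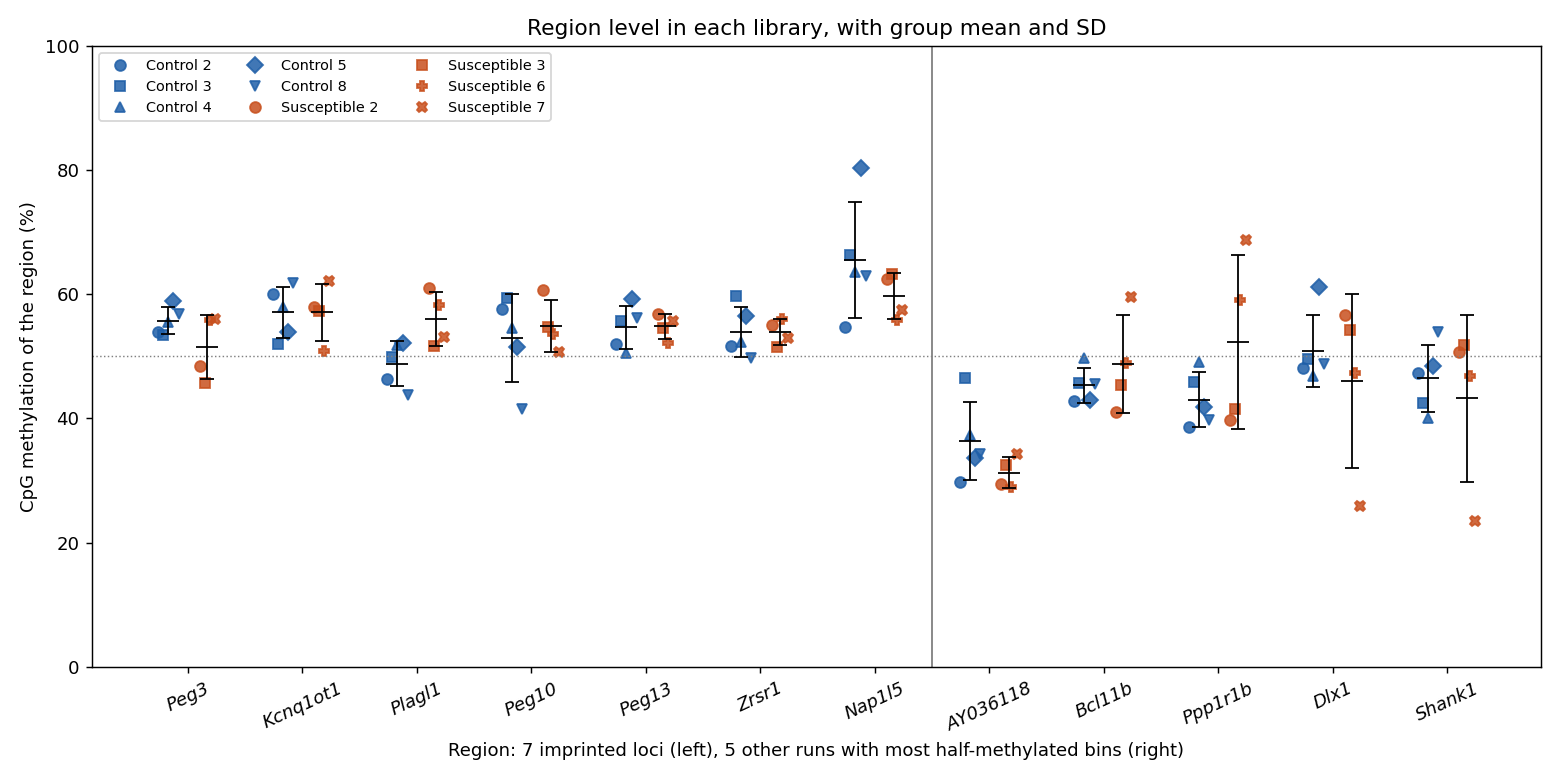
Methylation of each region (vertical axis, percent) in each library, for the 7 members on the left and the 5 other runs with the most half-methylated bins on the right. Control is blue and Susceptible orange, with 1 symbol per library and black bars for group mean and SD. At Plagl1 the group means are 48.8 and 56.0% and the groups overlap. Susceptible 7 stands away from the rest at Ppp1r1b, Dlx1 and Shank1.

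No 200-bp bin passed an adjusted p of 0.05 between the groups. With the quasi-binomial model 0 of 1413772 bins and 0 of 2753 regions were called, and limma on logit methylation also called 0 of each. At an unadjusted p under 0.05 the model had 5.03% of all bins, and the members had 14 of 186 tested bins, 10 of them inside regions. With limma this was 4.79% of all bins (67788) and 8 member bins. At the members, 2 of 186 bins had groups that did not overlap, against 1.81% of all bins. Both were lower in Susceptible mice, as were 1.20% of all bins, and neither lay in a region. In the member regions 38 of 77 bins were higher in Susceptible mice (49.4%, against 47.8% of all bins), and the median absolute difference was 6.31 points against 2.77 over all bins, whatever their level. At the level of whole regions it was 1.96 points at the 7 members and 3.72 points over all 2753 half-methylated regions. Most members have more half-methylated bins than the median run, which has 5, and the regions were not matched for size. Simulated data gave all features and libraries the same spread beyond binomial sampling, the median of the real features. Recovery at features or libraries of wider spread, such as Control 5 and Control 8, was not simulated. For the 2753 regions the model recovered 4.5% of those changed by 10 points, 84% of those changed by 20 and 100% of those changed by 40. It also called 0, 7 and 6 unchanged regions, in that order. For single bins, simulated on a random 200000 of them, it recovered 0% at 20 points and 78% at 40 points, and called 0 and 9 unchanged bins. Among unchanged simulated bins, 6.71 and 6.75% had an unadjusted p under 0.05 in the model, and 5.37 to 5.88% of unchanged regions did. Without Control 5 and Control 8 the members had 20 of 186 bins at an unadjusted p under 0.05, against 5.49% of all bins, and the model again called 0.

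At Peg10 the bin of smallest p, chr6:4747201-4747400, covered the gap between Sgce and Peg10. Control libraries 2, 3, 4, 5 and 8 read 68.5, 72.5, 62.0, 98.2 and 60.8%, and Susceptible libraries 2, 3, 6 and 7 read 62.9, 57.6, 44.8 and 44.4%. Susceptible 2 lay among the Controls and Control 5 far above all others. The difference was -19.97 points (p = 0.00863, adjusted p = 0.937 in the quasi-binomial model). The difference was -15.2 points without Control 5 and Control 8, and Susceptible 2 still lay among the Controls. Of 14 bins tested in the Peg10 region, 4 had an unadjusted p under 0.05, against 5.03% of all bins, and 2 of these read lower and 2 higher in Susceptible mice.

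Cell type makeup was read from gene-end levels at fixed marker genes. The mean over libraries of the median at 8 striatal neuron genes was 8.47% in Control and 9.02% in Susceptible mice. It was 48.8 and 45.8% at 4 oligodendrocyte genes, 71.8 and 66.3% at 4 astrocyte genes, 83.9 and 81.7% at 4 microglia genes, and 21.2 and 18.2% at 4 cortical neuron genes. At the astrocyte genes the Susceptible libraries ranged from 54.7 to 72.1% and the Controls from 69.9 to 74.4%, so the groups overlapped. The part of cell makeup in the Plagl1 difference was not tested.

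The 5 other autosomal runs with the most half-methylated bins served as a contrast. They overlapped no member and none of the listed imprinted genes, and lay at AY036118, Bcl11b, Ppp1r1b, Dlx1 and Shank1, with 18 to 24 half-methylated bins. Ppp1r1b encodes DARPP-32, a marker of striatal projection neurons, and Dlx1 a transcription factor of forebrain inhibitory neurons. Their SDs between libraries were 5.41 to 10.3 points, against 2.75 to 7.62 points at the members. The 18 runs at other imprinted genes had SDs of 2.16 to 11.4 points, and all runs of 10 or more bins a median SD of 5.78 points. Without Control 5 and Control 8 the 5 runs had SDs of 6.14 to 11.2 points and the members 2.39 to 4.99 points. These spreads were not compared by a test. Steadiness may have entered the choice of the members, so the lower values there are a description and not a finding.

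Susceptible 7 was the library that differed most at 4 of these 5 runs. It read 68.8% at Ppp1r1b where the other 8 libraries read 38.6 to 59.0%, 25.9% at Dlx1 where they read 46.8 to 61.1%, and 23.4% at Shank1 where they read 40.1 to 53.9%. At Bcl11b it read 59.6%, against 41.0 to 49.8%. At the members Susceptible 7 lay inside the range of the others in 6 of 7 regions, and at Kcnq1ot1 it was the highest by less than 1 point, at 62.1% against 61.8%.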

How the data were processed

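The deposited tables list CpG cytosines by strand with the count of calls and, per the file headers, the percent of those calls that are C or T. Every listed cytosine has at least 10 calls. The submitters' processing notes name Bismark, Bowtie and Picard, with no versions, and the build mm10. The authors' counts were not normalised. Methylated calls were recovered as count times percent, both strands were added, and a level is methylated over all calls of a region. Gene bounds and promoters are from RefSeq (GRCm38.p6); all 396389 listed CpGs inside its promoters fell on CG. The gene table gives no exons.

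Bins of 200 bp and regions were tested with a quasi-binomial model (group term, F test) whose dispersion was moderated with limma 3.58.1 in R 4.3.3 and kept at 1 or more, over all runs and over bins with a minimum of 3 CpGs and, in each library, 20 calls, with Benjamini-Hochberg adjustment. It was first tested on simulated data. Single regions used exact permutation tests (Python 3.11.15, scipy 1.17.1). Members, lists and motifs were chosen with earlier results of these data known. Named features were the 7 members, the genes that hold or face their regions, the bin of smallest p at each member and the 5 other autosomal runs with the most half-methylated bins. Alternatives covered band, bin size, call minimum, strand, each library left out and a block on mouse numbers. Nothing in the labels gives a batch. Each library is 1 mouse, so the permutation p-values measure spread between mice. Those of the quasi-binomial model and of limma also draw on the spread at other features.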

Additional observations from a re-analysis of the deposited data

Results flagged for a closer look

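One value stood far from the rest of its group. At the run over Dlx1, Control 5 read 61.1% where the other 4 Controls read 46.8 to 49.6%, a gap of 0.803 of the group's range. Of 28 group values examined in this way, 1 exceeded Dixon's limit, and chance gives about 1 in 20. No member region had such a value.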

How the results depend on the processing

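Over the alternatives for the 7 region differences, 86 values kept direction and side of an unadjusted exact p of 0.05. Another 13 (all Plagl1) kept direction but were no longer under it, and 27 changed sign, at regions that had not been under it. In the replicate block and without Control 5 and Control 8, too few libraries remain for a p under 0.05 at any region. With 1 library left out, only groups without overlap could be under it. Plagl1 stayed positive in all 18, from 3.44 to 10.1 points, with 5 under 0.05. Among these 5, the band of 20 to 80% left the Plagl1 region unchanged and so only repeats the main value. Some alternatives did the same at other members. It read 7.55 points (exact p = 0.0794) at a minimum of 20 calls, 6.23 points (exact p = 0.0794) with CpGs of all 9 libraries weighted equally, 3.44 points on the reverse strand alone and 6.69 points without Control 5 and Control 8. Leaving out 1 library gave 5.56 to 8.67 points. The same gave -5.71 to -2.32 points at Peg3 (highest without Susceptible 3), -8.55 to -2.14 at Nap1l5 (highest without Control 5), -1.72 to 2.02 at Kcnq1ot1, -0.88 to 3.57 at Peg10, -0.92 to 1.25 at Peg13 and -1.15 to 1.34 at Zrsr1.

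Kcnq1ot1 read 0.42 points at a minimum of 20 calls, 2.33 on the reverse strand and 0.44 without Control 5 and Control 8. Peg10 read -2.38 on the forward strand and -2.30 without those 2 libraries. Peg13 read -0.80 with equal CpG weights, -0.65 with a band of 40 to 60% and -1.71 on the forward strand. Zrsr1 read 1.24 with equal CpG weights, 0.028 with 400-bp bins and 2.67 on the reverse strand. The cause was not tested.

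Mouse numbers 2 and 3 occur in both groups, but the labels do not say that they pair mice, and deviations of same-numbered libraries correlated at 0.161 and -0.0750 over runs. With a replicate block, which uses only the 4 libraries of these numbers, the differences were 8.26 points at Plagl1 (exact p = 0.5, the smallest that 2 pairs allow, so it could not pass), -6.62 at Peg3, 1.69 at Kcnq1ot1, -0.85 at Peg10, 1.87 at Peg13, -2.40 at Zrsr1 and 2.32 at Nap1l5, and 1 run was called in place of 0, at Poli (adjusted p = 0.0136 in limma), which no other setting called and which was named after its values were seen.

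Of 49 widths under other settings, 8 moved by more than the SD of that member's widths in single libraries. Peg13 was 2000 bp with 100-bp bins, 4000 bp with a band of 40 to 60% and 4600 bp with at least 50 calls. Peg10 was 1600 bp with that band and 2000 bp with at least 50 calls. With 400-bp bins Zrsr1 was 5600 bp and Nap1l5 2000 bp, and Plagl1 was 1600 bp without Control 5 and Control 8. Peg3 was 1800 bp with 100-bp and 6000 bp with 400-bp bins, which its wide SD of 2612 bp did not count as moved. The Nap1l5 stretch lay elsewhere under the band of 40 to 60% (difference -14.0 points) and with 400-bp bins. The analysis without Control 5 and Control 8 was chosen after seeing the data. The minimum of 10 calls before deposit leaves CpG-poor flanks unmeasured, which limits the edges.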
